A study of Rattus norvegicus with 16 samples.

Results

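The 10 macrophage identity and scavenger genes Cd68, Cd14, Csf1r, Cd163, Mrc1, Msr1, Marco, C1qa, Gpnmb and Trem2 were followed through the soft tissue and the bone of rat osteotomies with and without a cement spacer. They were chosen by name, and all 10 of 10 symbols were found among the 14476 genes of the count table. Of these, 9 had enough counts to be tested, and Marco did not.

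Macrophages clear dead cells, debris and foreign material, and they gather around implanted cement as they do around other foreign bodies. CSF1R receives the growth factor signals that keep them alive, while scavenger and pattern receptors on their surface (CD14, CD163, CD206, SR-A and MARCO) bind bacterial products, haemoglobin, glycoproteins and modified lipoproteins. Tissue-resident macrophages commonly carry CD163, CD206 and complement C1q, whereas TREM2 and GPNMB mark macrophages loaded with lipid or debris. In bone, osteoclasts come from the same lineage and also carry CSF1R and CD68, and GPNMB, first described there as osteoactivin, is made by osteoblasts and osteoclasts too.

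The study asked how gene expression differs between regenerating tissues of an osteotomy that holds a polymethyl methacrylate (PMMA) spacer, as in the first stage of the Masquelet technique for bone defects, and one that was left empty. All tissues came from 4 Sprague-Dawley rats with plated osteotomies in both limbs, a spacer in 1 limb and no filling in the other, after 4 weeks of healing. The 4 groups were the induced membrane that formed round the spacer (IM), the pre-fibrous non-union tissue of the empty osteotomy (PFNU), the bone next to the spacer (PMMA bone) and the bone next to the empty defect (BNED). Each group held 4 poly-A RNA-seq libraries, 1 from each rat, so every rat gave all 4 tissues, and no limb without surgery was among them.

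Promoter sequence is shown for 4 members that behaved differently across the libraries. Cd14, Trem2 and Gpnmb varied together and Cd163 varied apart from them from library to library. Each line holds the 250 bases 5′ to the gene's start in the RefSeq rat assembly GRCr8, read along the gene's strand, and capitals mark GAGGAA or its reverse complement TTCCTC, the core motif of PU.1, the transcription factor that defines the myeloid lineage. The windows lie at chr18:28611159-28611408 on the minus strand for Cd14, chr9:20151780-20152029 on the minus strand for Trem2, chr4:79340878-79341127 on the plus strand for Gpnmb and chr4:158770524-158770773 on the plus strand for Cd163.
Cd14: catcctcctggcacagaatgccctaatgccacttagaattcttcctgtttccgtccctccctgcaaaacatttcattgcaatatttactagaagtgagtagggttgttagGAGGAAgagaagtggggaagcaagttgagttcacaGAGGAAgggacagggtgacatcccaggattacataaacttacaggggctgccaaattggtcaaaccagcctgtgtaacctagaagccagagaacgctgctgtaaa
Trem2: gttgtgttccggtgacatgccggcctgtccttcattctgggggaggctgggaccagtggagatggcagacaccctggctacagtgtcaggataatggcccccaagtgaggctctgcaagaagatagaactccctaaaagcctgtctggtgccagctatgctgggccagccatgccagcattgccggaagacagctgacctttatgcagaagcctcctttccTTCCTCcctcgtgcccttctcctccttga
Gpnmb: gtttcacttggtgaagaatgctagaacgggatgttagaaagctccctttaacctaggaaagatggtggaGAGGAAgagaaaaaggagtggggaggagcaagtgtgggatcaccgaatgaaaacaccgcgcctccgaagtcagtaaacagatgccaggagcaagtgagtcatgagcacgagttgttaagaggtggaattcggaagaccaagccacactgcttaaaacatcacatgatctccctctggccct
Cd163: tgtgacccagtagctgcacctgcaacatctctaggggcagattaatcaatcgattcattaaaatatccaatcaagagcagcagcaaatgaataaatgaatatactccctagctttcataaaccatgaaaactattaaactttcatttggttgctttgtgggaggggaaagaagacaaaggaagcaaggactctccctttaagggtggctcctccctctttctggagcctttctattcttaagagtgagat
The Cd14 window held 2 copies, the Trem2 and Gpnmb windows 1 each, and the Cd163 window 0. GAGGAA on either strand was present in 23.3% of all 33469 promoter windows in the RefSeq table and in those of 7 of the 9 members that had a window (Cd68, Cd14, Csf1r, Mrc1, Marco, Gpnmb and Trem2), with C1qa and Cd163 the others. CATGTG, the E-box read by MITF, was in 12.1% of all windows and in those of Cd68, Mrc1, C1qa and Gpnmb. TGANTCA, the AP-1 motif, was in 6.34% of all windows and in those of Cd68 and Gpnmb. These matches describe the letters of the windows and say nothing of binding. The 4 windows shown were chosen by how the genes varied, so their motif counts were no test of that variation.

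Libraries held 40472228 to 76815879 counts. The libraries were mixed tissues whose cell content differed. Counts of 14 skeletal muscle markers took 2.25 to 20.9% of a library in IM, 6.28 to 15.4% in PFNU, 0.163 to 1.04% in PMMA bone and 0.377 to 4.10% in BNED. Counts of 8 erythroid markers took 0.352 to 6.30% of a library in PMMA bone, 3.36 to 5.90% in BNED and at most 0.351% in either soft tissue, and the PMMA bone of rat 1, at 6.30%, was above every BNED library in this share and among them along the first principal component. The macrophage label fitted the tissues to the extent that 9 of the 10 members were counted in every library, as were the 6 other macrophage genes used as a reference, the surface receptor Adgre1 (Emr1 in the table), Aif1, Tyrobp, Fcer1g, Laptm5 and Ctss. In bulk tissue, fewer cells of a type and less RNA per cell cannot be told apart.

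Marco, a scavenger receptor of alveolar and splenic marginal zone macrophages, was close to absent from the counts. It had 0 counts in 14 of the 16 libraries and 1 count in each of the other two, PFNU of rat 1 and PMMA bone of rat 3. At these depths a count of 0 allows a level of up to 0.0391 to 0.0741 CPM (3 counts, counting error only), and Marco was left out of all tests. Levels of the other 9 members are CPM (counts scaled to a common library size) after TMM scaling of library sizes, a scale that does not correct for gene length, so levels are compared between tissues and not between genes.

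**Figure D1:**
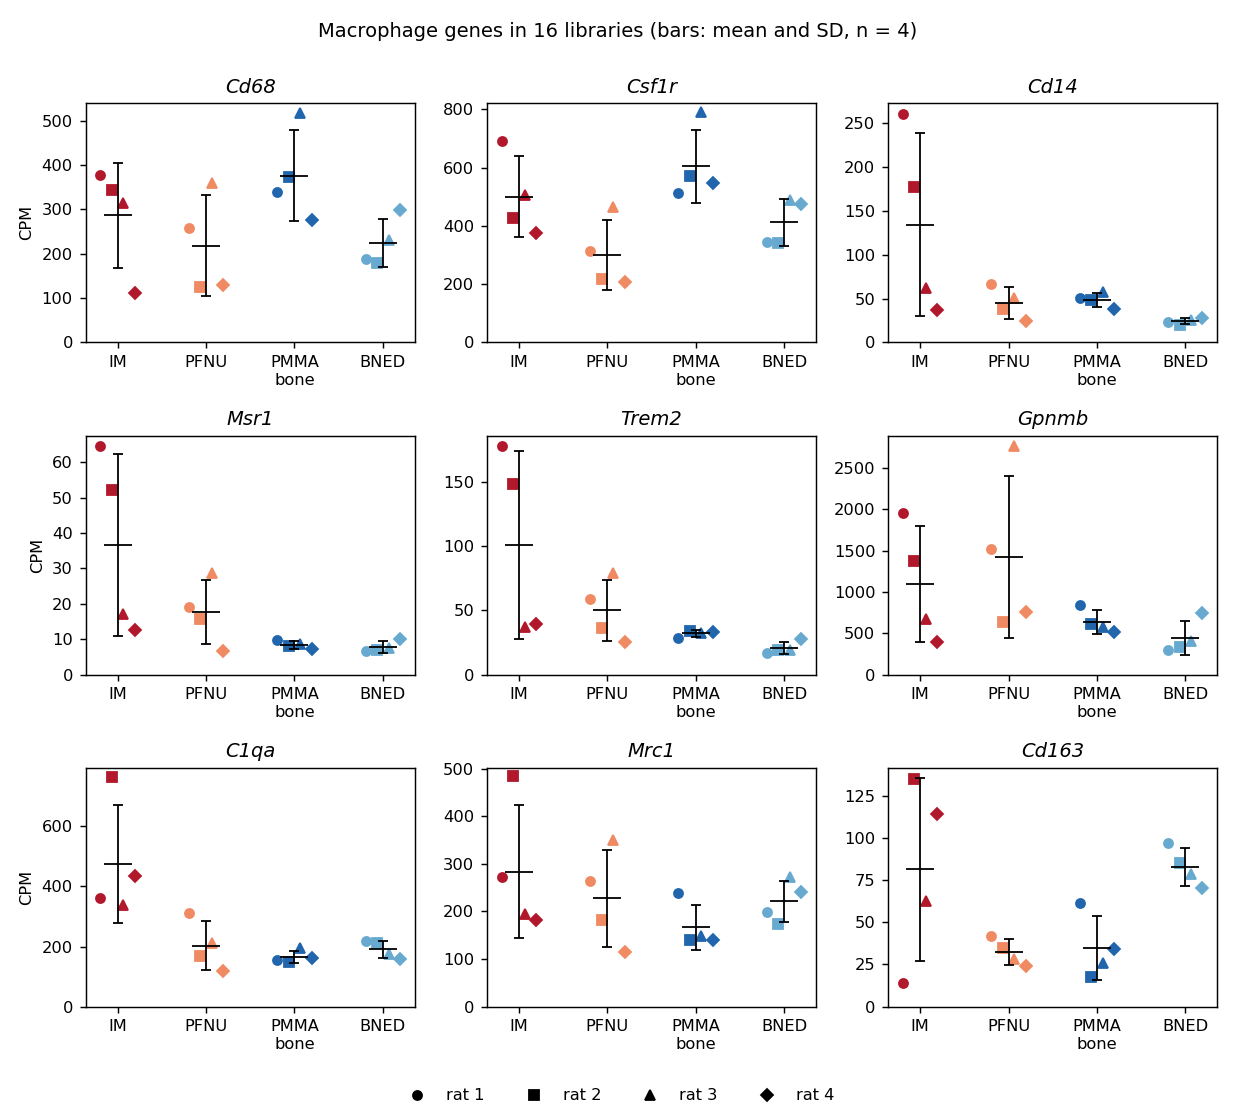
CPM (linear axis) of the 9 tested macrophage genes in IM, PFNU, PMMA bone and BNED, with 1 point per library, the shape giving the rat and bars the mean and SD of 4 libraries. C1qa in IM, at 339 to 763 CPM, lay above every PFNU library, Cd163 in PMMA bone lay below every BNED library, and the IM libraries of rats 1 and 2 were the highest IM libraries for Cd14, Msr1, Gpnmb and Trem2.

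The first comparison asked what the spacer changed in the soft tissue of the defect. In the membrane against PFNU, 8 of the 9 tested members had a positive log2 fold change and Gpnmb a negative one, with a median of 1.01 over the members and 0.01 over all 12857 genes tested. None passed the test at an adjusted p under 0.05 (edgeR quasi-likelihood test with Benjamini-Hochberg adjustment over all genes, which is the source of every adjusted p below unless another tool is named), against 0.863% of all genes (0.366% higher and 0.498% lower). At an unadjusted p under 0.05 the count was 6 of 9, against 15.5% of all genes. DESeq2, which called 563 genes in all, called 2 members, Cd14 (adjusted p = 0.0245) and C1qa (adjusted p = 0.00562).

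C1qa, a chain of the complement component that opsonises dying cells and debris, had 363, 763, 339 and 434 CPM in IM of rats 1 to 4, against 313, 169, 211 and 119 CPM in PFNU. Each of the 4 IM libraries was above all PFNU libraries, a pattern held by 3.96% of all genes tested (3.31% had all 4 below), and C1qa was the single member to show it. The log2 fold change was 1.23 (standard error 0.29, adjusted p = 0.0657). Without the IM library of rat 3 the adjusted p was 0.0429, and without the PFNU library of rat 1 it was 0.0272. The other chains of the same protein, C1qb and C1qc, had log2 fold changes of 1.09 and 1.29, each with an adjusted p of 0.057.

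Cd14, the co-receptor that passes lipopolysaccharide to TLR4, had 259.9, 177, 61.9 and 36.9 CPM in IM, against 66.7, 37.6, 50.8 and 24.6 CPM in PFNU. The IM libraries of rats 1 and 2 were far above every PFNU library, while those of rats 3 and 4 lay within the PFNU range, and IM was the higher tissue in 4 of 4 rats. The log2 fold change was 1.58 (standard error 0.46, adjusted p = 0.12, and 0.0313 without the IM library of rat 4). Msr1 (SR-A, a receptor for modified lipoproteins) and Trem2 (a lipid-sensing receptor that signals through Tyrobp) divided the IM libraries in the same way. Msr1 had 64.6, 52.1, 17.2 and 12.6 CPM in IM, against 19.1, 15.8, 28.8 and 6.75 CPM in PFNU (log2 fold change 1.06, standard error 0.47, adjusted p = 0.295). Trem2 had 178, 148, 36.9 and 39.4 CPM in IM, against 59.2, 36.2, 79.1 and 25.2 CPM in PFNU (log2 fold change 1.01, standard error 0.46, adjusted p = 0.304). Skeletal muscle markers took 2.25, 3.97, 16.5 and 20.9% of the counts in the IM libraries of rats 1 to 4, so the IM libraries with high Cd14, Msr1 and Trem2 were those with little muscle RNA, against 8.46, 14.8, 6.28 and 15.4% in PFNU. The part of muscle content in these differences was not tested for single libraries. With the muscle marker level (the mean log2 CPM of the muscle markers) as a covariate, the adjusted p values in this comparison stayed above 0.05 for all 9 members.

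Cd163, the haemoglobin-haptoglobin scavenger of resident macrophages, did not follow that division. It had 14.0, 135, 62.5 and 114 CPM in IM, against 41.9, 34.7, 28.5 and 23.9 CPM in PFNU. IM was the higher tissue in rats 2, 3 and 4, and in rat 1 the order was turned round, with the lowest Cd163 of all 16 libraries in the membrane that held the highest Cd14. The log2 fold change was 1.33 (standard error 0.50, adjusted p = 0.213). Csf1r, the receptor for CSF1 and IL-34, had 692, 428, 508 and 375 CPM in IM, against 313, 217, 466 and 207 CPM in PFNU, and IM was the higher in 4 of 4 rats although the groups overlapped (log2 fold change 0.74, standard error 0.28, adjusted p = 0.219). The lysosomal protein gene Cd68 averaged 286 ± 119 CPM in IM and 218 ± 113 CPM in PFNU (SD, n = 4 each), with a log2 fold change of 0.39 (standard error 0.39, adjusted p = 0.701). Mrc1 (CD206, the mannose receptor) averaged 283 ± 139 CPM in IM and 228 ± 101 CPM in PFNU, with a log2 fold change of 0.32 (standard error 0.35, adjusted p = 0.74). Gpnmb, a glycoprotein of debris-laden macrophages and of osteoblasts, had 1950.4, 1373, 676 and 389 CPM in IM, against 1524, 629.9, 2765 and 762 CPM in PFNU. The PFNU of rat 3 held the highest Gpnmb of the 16 libraries, each tissue was the higher in a pair of rats, and the log2 fold change was -0.37 (standard error 0.51, adjusted p = 0.804).

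Around the members, few macrophage genes passed the test between IM and PFNU, where 0.863% of all genes did. On simulated counts 29% of 2-fold changes were recovered in this comparison, so a lack of calls does not show a lack of difference. The simulation gave each gene the same spread in all tissues, so the 29% does not carry over exactly to the more variable soft tissues. Of 19 other macrophage surface and opsonin genes tested, 1 rose in IM, Lyve1, the hyaluronan receptor of perivascular resident macrophages and of lymphatic endothelium, which averaged 91.8 ± 37.3 CPM in IM and 33.7 ± 12.4 CPM in PFNU (log2 fold change 1.45, standard error 0.29, adjusted p = 0.0349). The call of Lyve1 was lost without the IM library of rat 2 (0.0830), the PFNU library of rat 1 (0.0542), 3 (0.0926) or 4 (0.133), the PMMA bone library of rat 3 (0.0531) or the BNED library of rat 1 (0.0506) or 3 (0.0550), and by limma-voom (0.124). None of the 6 reference macrophage genes, 13 other scavenger receptors, 13 CSF1 receptor ligands and macrophage transcription factors, 7 genes of the CD14 receptor complex, 10 genes of haem and iron handling or 18 TREM2 partners and lipid or lysosome genes passed the test in either direction. The median log2 fold change was 0.50 over the reference genes and 0.55 over the 19 surface genes. Positive values were held by 6 of 6 reference genes and 16 of 19 surface genes. At an unadjusted p under 0.05, 6 of 19 surface genes were higher and 0 lower, against 15.5% of all genes in either direction.

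The second comparison asked the same question of the bone beside the defect. In PMMA bone against BNED, 0 of 9 members passed the test, against 4.91% of all genes (3.51% higher and 1.4% lower), and the median log2 fold change was 0.51 over the members and -0.01 over all genes. At an unadjusted p under 0.05 the count was 2 of 9, Cd14 higher and Cd163 lower, against 24.3% of all genes. In this comparison 3 members had all 4 PMMA bone libraries above all BNED libraries (Cd14, Csf1r and Trem2), as had 12% of all genes, and Cd163 had all 4 below, as had 7.05% of all genes.

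Cd163 had 61.4, 17.8, 26.1 and 34.1 CPM in PMMA bone of rats 1 to 4, against 97.1, 85.3, 78.7 and 70.0 CPM in BNED. It was lower beside the spacer in 4 of 4 rats, least so in rat 1, whose PMMA bone had the highest erythroid share of all libraries. The log2 fold change was -1.25 (standard error 0.50, adjusted p = 0.146). Without the PMMA bone library of rat 1 it was -1.67 (adjusted p = 0.0378), and without the IM library of rat 1, which enters this comparison only through the shared model, the adjusted p was 0.0396. Of the marrow markers, 4 of 10 for neutrophils and 3 of 5 for B cells fell in PMMA bone, against 1.4% of all genes. The count was 0 of 8 for erythroid markers, 1 of 5 for T cells and 1 of 5 for mast cells. The summed level of 10 neutrophil markers was 206 to 576 CPM in PMMA bone and 1192 to 1697 CPM in BNED, with none of the 10 at 0 in either group. With the erythroid marker level as a covariate, 0 genes were called in this comparison. Neither Cd163 nor any other member then had an unadjusted p under 0.05. Beyond that fit, the part of marrow content in the Cd163 values was not tested.

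Cd14 had 50.5, 48.5, 57.6 and 38.4 CPM in PMMA bone, against 23.6, 20.4, 25.3 and 28.3 CPM in BNED, with no overlap and a log2 fold change of 1.00 (standard error 0.46, adjusted p = 0.196). Csf1r had 513, 572, 790.3 and 547 CPM in PMMA bone, against 347, 341, 488 and 476 CPM in BNED (log2 fold change 0.55, standard error 0.28, adjusted p = 0.236). Trem2 had 28.5, 34.2, 32.4 and 33.2 CPM in PMMA bone, against 16.8, 19.1, 19.2 and 27.5 CPM in BNED (log2 fold change 0.64, standard error 0.45, adjusted p = 0.408). The levels of these genes varied less between rats in bone than in soft tissue, and the test used 1 estimate of the spread over all 4 tissues. Fitted on the bone libraries alone, where 1767 genes were called in all, 3 of the 9 were called, Cd14 (adjusted p = 0.0216), Trem2 (0.0338) and Cd163 (0.0395). With the muscle marker level as a covariate the log2 fold changes were 0.17 for Cd14, 0.22 for Csf1r and -0.12 for Trem2, a turned sign. The 1 call was Mrc1 (-1.08, adjusted p = 0.0249). Limma-voom with quality weights, which called 6244 genes in all, called 6, adding Cd68 (0.0347), Csf1r (0.0286) and Mrc1 (0.0238) to Cd14 (0.00884), Trem2 (0.0424) and Cd163 (0.000229).

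Cd68 averaged 376 ± 103 CPM in PMMA bone and 224 ± 54.0 CPM in BNED (SD, n = 4 each), and was higher beside the spacer in 3 of 4 rats (log2 fold change 0.75, standard error 0.39, adjusted p = 0.249). Gpnmb averaged 636 ± 142 CPM in PMMA bone and 446 ± 207 CPM in BNED (log2 fold change 0.51, standard error 0.51, adjusted p = 0.565). The log2 fold changes of Msr1 (0.11, standard error 0.46, adjusted p = 0.909), C1qa (-0.21, standard error 0.29, adjusted p = 0.685) and Mrc1 (-0.40, standard error 0.35, adjusted p = 0.501) were all close to or below their standard errors in size. Osteoclast markers, of which 8 of 10 were in the table, had a summed level of 8360 to 17584 CPM in PMMA bone and 3189 to 6150 CPM in BNED, with none at 0. None of the 8 passed the test (median log2 fold change 1.04, lowest adjusted p 0.133). The part of osteoclast RNA in the Cd68, Csf1r and Gpnmb values was not tested.

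Among genes linked to the members, 3 rose and 1 fell in bone, where 4.91% of all genes were called. The scavenger receptor family gene Scara3 rose, with 209 ± 28.8 CPM in PMMA bone and 103 ± 23.2 CPM in BNED (log2 fold change 1.02, standard error 0.24, adjusted p = 0.0338), as the 1 of 13 other scavenger receptors. Lbp, which carries lipopolysaccharide to CD14, rose as the 1 of 7 in the CD14 complex, with 359 ± 176 CPM in PMMA bone and 90.0 ± 31.6 CPM in BNED (log2 fold change 1.99, standard error 0.48, adjusted p = 0.0338). Hpx, the plasma haem carrier, rose as the 1 of 10 in haem and iron handling (log2 fold change 1.63, standard error 0.41, adjusted p = 0.0364), and Plcg2, which acts downstream of TREM2 and of the B cell receptor, fell as the 1 of 18 TREM2 partners (48.2 ± 9.96 CPM in PMMA bone and 97.0 ± 9.93 CPM in BNED, log2 fold change -1.01, standard error 0.19, adjusted p = 0.0189). None of the 6 reference macrophage genes, 19 other surface genes or 13 CSF1 receptor ligands and transcription factors was called. With any of 5 single libraries left out (PMMA bone of rat 2, 3 or 4, or BNED of rat 1 or 3) 0 of the 12857 genes were called, so these calls rested on each of them, and the calls of Scara3 (0.0767), Lbp (0.0762) and Hpx (0.0752) were also lost without the BNED library of rat 2. With the rat as a block, the adjusted p was 0.0507 for Lbp and 0.0606 for Hpx. With the erythroid marker level as a covariate 0 genes were called in this comparison, so every call in this paragraph was lost.

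Whether the spacer effect differed between soft tissue and bone was tested by the interaction, the log2 fold change of IM over PFNU minus that of PMMA bone over BNED. Of the 9 members, Cd163 and C1qa had the largest values. Cd163 was higher in IM than in PFNU by 1.33 and lower in PMMA bone than in BNED by 1.25 on the log2 scale, a difference of 2.58 (standard error 0.71, unadjusted p = 0.00224, adjusted p = 0.262). C1qa differed by 1.44 (standard error 0.41, unadjusted p = 0.00319, adjusted p = 0.278). The other 7 had adjusted p values of 0.71 to 0.923. No gene of the 12857 was called, 0%, while 1149 (8.94%) had an unadjusted p under 0.05. Cd163 was called by DESeq2 (2.62, adjusted p = 0.0302), by limma-voom (2.54, adjusted p = 0.0352) and by edgeR without the PMMA bone library of rat 1 (3.00, adjusted p = 0.0499).

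Averaged over both tissues of a limb, Cd14 and Csf1r rose on the spacer side, 2 of 9 members, against 10.7% of all genes (7.65% higher and 3.09% lower). The mean log2 fold change of Cd14 was 1.29 (standard error 0.33, adjusted p = 0.0215), with higher values in 4 of 4 rats in each tissue, and it kept its call whichever library was left out. That of Csf1r was 0.64 (standard error 0.20, adjusted p = 0.0478), also higher in 4 of 4 rats in each tissue. The call of Csf1r held when the IM library of rat 2 or 4, the PFNU library of rat 3 or the PMMA bone library of rat 1 was left out, and was lost without any 1 of the other 12 (adjusted p 0.0576 to 0.114). Trem2 had a mean of 0.82 (standard error 0.32, adjusted p = 0.111, and 0.0475 or 0.0495 without the IM library of rat 3 or 4), and C1qa of 0.51 (standard error 0.21, adjusted p = 0.122, and 0.0479 without the PFNU library of rat 1). Cd68 (0.57, adjusted p = 0.188) and Msr1 (0.58, adjusted p = 0.262) were not called, and mean values of Cd163, Mrc1 and Gpnmb lay between -0.04 and 0.07. With the muscle marker level as a covariate the mean of Cd14 was 0.52 (adjusted p = 0.296) and that of Csf1r 0.37 (adjusted p = 0.195). With the erythroid marker level they were 0.85 (adjusted p = 0.577) and 0.22 (adjusted p = 0.784). Without filtering low counts Csf1r had an adjusted p of 0.0528.

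Within the spacer limb, the membrane was set against the bone next to the spacer. This comparison shares its IM libraries with the first and its PMMA bone libraries with the second. Msr1, C1qa, Trem2 and Cd14 rose in IM, 4 of 9 members, against 22.2% of all genes (11.3% higher and 11% lower), and 0 fell. The median log2 fold change was 1.22 over the members and 0.03 over all genes. Msr1, C1qa and Trem2 had all 4 IM libraries above all PMMA bone libraries, as had 7.75% of all genes (11.7% had all 4 below), and their membrane values stand above.

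Msr1 had 9.88, 7.98, 8.62 and 7.09 CPM in PMMA bone and more than that in each IM library, with a mean of 36.6 ± 25.7 CPM in IM and 8.39 ± 1.17 CPM in PMMA bone (SD, n = 4 each). Its log2 fold change was 2.13 (standard error 0.48, adjusted p = 0.00764). C1qa had 155, 149, 195 and 162 CPM in PMMA bone, and averaged 475 ± 197 CPM in IM and 165 ± 20.6 CPM in PMMA bone (log2 fold change 1.52, standard error 0.30, adjusted p = 0.00372). Both calls held whichever library was left out. Trem2 averaged 101 ± 73.2 CPM in IM and 32.1 ± 2.52 CPM in PMMA bone (log2 fold change 1.65, standard error 0.46, adjusted p = 0.0211), a call lost without the IM library of rat 2 (0.0506) or the PMMA bone library of rat 1 (0.0572) or 3 (0.0502). Cd14 averaged 134 ± 104 CPM in IM and 48.7 ± 7.95 CPM in PMMA bone, with IM of rat 4 (36.9 CPM) below its own bone (log2 fold change 1.46, standard error 0.46, adjusted p = 0.0357). Its call was lost without the IM library of rat 1 (0.96, adjusted p = 0.105) or 2 (0.0730) and without the PMMA bone library of rat 1 (0.0744), 2 (0.0661), 3 (0.0617) or 4 (0.0906), and with the rat as a block (1.25, adjusted p = 0.0574). Limma-voom called neither Cd14 (0.63, adjusted p = 0.239) nor Trem2 (0.66, adjusted p = 0.223), and the fit on these 2 tissues alone gave adjusted p of 0.118 for Cd14 and 0.0744 for Trem2. With the erythroid marker level as a covariate, which all but separated soft tissue from bone, none of the 4 was called (adjusted p 0.167 for C1qa to 0.811 for Cd14). With the muscle marker level C1qa had an adjusted p of 0.0502.

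The remaining 5 members did not pass. Cd163 had a log2 fold change of 1.22 (standard error 0.50, adjusted p = 0.0877), with IM the higher in 3 of 4 rats. Without the IM library of rat 1, where it was lowest, the fold change was 1.60 (adjusted p = 0.00589). Cd163 was also called by DESeq2 (1.25, adjusted p = 0.0444) and with the erythroid marker level as a covariate (2.80, adjusted p = 0.0467). Mrc1 had 0.76 (standard error 0.35, adjusted p = 0.127) and Gpnmb 0.79 (standard error 0.51, adjusted p = 0.282). With the muscle marker level as a covariate both were called, Mrc1 at 2.04 (adjusted p = 0.00983) and Gpnmb at 2.68 (adjusted p = 0.0044). Csf1r and Cd68, which osteoclasts share, had values of the other sign, -0.27 (standard error 0.28, adjusted p = 0.495) and -0.39 (standard error 0.39, adjusted p = 0.482). The summed osteoclast markers were 786 to 4324 CPM in IM, against 8360 to 17584 CPM in PMMA bone. With the muscle marker level as a covariate Csf1r was at 0.43 and Cd68 at 0.70.

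Other macrophage surface genes rose too in IM against PMMA bone. Over all genes tested, 11.3% rose and 11% fell there, the share to set beside each list count below. Of 19 other surface and opsonin genes 8 rose and 0 fell, among them Lyve1 (log2 fold change 2.06, standard error 0.30, adjusted p = 0.000634), the folate receptor Folr2 (1.83, standard error 0.31, adjusted p = 0.0019) and C1qb (1.37, standard error 0.25, adjusted p = 0.00272), with a list median of 1.02. Of 13 other scavenger receptors 3 rose and 2 fell. Scara5, a ferritin receptor, rose by 2.13 (standard error 0.33, adjusted p = 0.000942), and Scarb1, the HDL receptor, by 0.76 (standard error 0.19, adjusted p = 0.0134), whereas Stab2, the hyaluronan scavenger of sinusoidal endothelium, fell (adjusted p = 0.00092, and 0.102 by limma-voom), with 0.0384 to 0.158 CPM in IM, a few counts per library, against 1.36 to 19.2 CPM in PMMA bone. Of 18 TREM2 partners and lipid or lysosome genes 4 rose and 3 fell. Apoe, a lipid ligand of TREM2, averaged 4424 ± 1943 CPM in IM and 1193 ± 70.1 CPM in PMMA bone (1.89, standard error 0.35, adjusted p = 0.00267), the lysosomal membrane gene Lamp1 rose (0.81, standard error 0.16, adjusted p = 0.00346), and Plcg2 fell (-0.88, standard error 0.19, adjusted p = 0.00594).

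In IM against PMMA bone, where 11.3% of all genes rose and 11% fell, 4 of 13 CSF1 receptor ligands and transcription factors rose and 0 fell. They included Il34, the second ligand of CSF1R (log2 fold change 1.30, standard error 0.29, adjusted p = 0.00766), Nr1h3, the oxysterol receptor LXR-alpha (0.80), and Mitf (0.73, standard error 0.21, adjusted p = 0.0218, and 0.0551 without the PMMA bone library of rat 4). In haem and iron handling 1 of 10 rose, the haem transporter Slc48a1 (0.62, standard error 0.20, adjusted p = 0.0403), and 2 fell, haptoglobin Hp (-1.66, standard error 0.31, adjusted p = 0.00303) and the iron exporter Slc40a1 (-0.83, standard error 0.27, adjusted p = 0.0372). The call of Slc40a1 was lost without the IM library of rat 3 or 4 or the PMMA bone library of rat 1 or 4 (adjusted p up to 0.132), and that of Slc48a1 without any 1 of 8 libraries (up to 0.126). None of the 7 CD14 complex genes or the 6 reference genes was called. With the erythroid marker level as a covariate, the calls named in this and the preceding paragraph were lost for every gene other than Lyve1 (adjusted p of the others 0.0542 to 0.669).

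Within the empty limb, PFNU was set against BNED, a comparison that shares its libraries with the first and second. Gpnmb and Trem2 rose in PFNU, 2 of 9 members, against 30.2% of all genes (15% higher and 15.2% lower), and 0 fell. The median log2 fold change was 0.09 over the members and 0.04 over all genes. Cd163 was the 1 member whose groups did not overlap, with all 4 PFNU libraries below all BNED libraries, as had 21% of all genes, while 18.9% had all 4 above.

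Gpnmb had 1524, 629.9, 2765 and 762 CPM in PFNU, against 292, 334, 412 and 748 CPM in BNED. PFNU was the higher in 4 of 4 rats, by little in rat 4, whose BNED was the highest of its group (log2 fold change 1.67, standard error 0.52, adjusted p = 0.0267). Trem2 had 59.2, 36.2, 79.1 and 25.2 CPM in PFNU, against 16.8, 19.1, 19.2 and 27.5 CPM in BNED, and PFNU was the higher in 3 of 4 rats (log2 fold change 1.27, standard error 0.46, adjusted p = 0.0474). Neither call was stable, although both held with RLE scaling, DESeq2, limma-voom, the fit on these tissues alone and the muscle covariate. That of Gpnmb was lost with the rat as a block (adjusted p = 0.0663) and without the PFNU library of rat 3 (1.12, adjusted p = 0.0964) or the BNED library of rat 1 (0.0782), 2 (0.0587) or 3 (0.0670). That of Trem2 was lost with the rat as a block (1.19, adjusted p = 0.0877), without filtering low counts (0.0504) and without the PFNU library of rat 1 (0.0952), 2 (0.0572) or 3 (0.132), any PMMA bone library (0.0540 to 0.0597) or any BNED library (0.0592 to 0.113). With the erythroid marker level as a covariate, neither Gpnmb (0.532) nor Trem2 (0.913) was called.

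Cd163 in PFNU, at 23.9 to 41.9 CPM, was below BNED, at 70.0 to 97.1 CPM, in 4 of 4 rats, with a log2 fold change of -1.36 (standard error 0.50, adjusted p = 0.051). The adjusted p was under 0.05 without the IM library of rat 1 (0.0068), 2 (0.0407) or 4 (0.0464) or the PMMA bone library of rat 1 (0.0405) or 2 (0.0489), none of which is in the comparison itself. Msr1 averaged 17.6 ± 9.11 CPM in PFNU and 7.78 ± 1.58 CPM in BNED (log2 fold change 1.18, standard error 0.47, adjusted p = 0.0675, and 0.0315 without the PFNU library of rat 4 or 0.0430 without the IM library of rat 4). Cd14 averaged 44.9 ± 18.0 CPM in PFNU and 24.4 ± 3.30 CPM in BNED (log2 fold change 0.88, standard error 0.46, adjusted p = 0.154). Csf1r had a log2 fold change of -0.46 (standard error 0.28, adjusted p = 0.223) and was lower in PFNU in 4 of 4 rats; without the PFNU library of rat 3 its value was -0.75 (adjusted p = 0.0461). C1qa, Mrc1 and Cd68 had values of 0.09, 0.04 and -0.04, with adjusted p of 0.841 to 0.949. DESeq2, limma-voom and the fit on these tissues alone each called both Cd163 and Msr1. Cd14 was called by the fit on these tissues alone and with the muscle covariate, which also called Msr1, and Csf1r by limma-voom. With the erythroid marker level as a covariate no member was called and the value of Cd163 turned positive.

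Of the 6 reference macrophage genes Laptm5 fell in PFNU against BNED (log2 fold change -0.81, standard error 0.29, adjusted p = 0.0497) and the other 5 were not called. The call of Laptm5 was lost without any 1 of 12 libraries, with RLE scaling (0.0513) and without filtering (0.0541). Of 19 other surface genes Folr2 and Lyve1 rose and 0 fell, where 15% of all genes rose and 15.2% fell. Folr2 averaged 59.6 ± 24.4 CPM in PFNU and 29.4 ± 2.62 CPM in BNED (log2 fold change 1.02) and lost its call without PFNU of rat 1 or 3 or BNED of rat 1 (adjusted p up to 0.0659). Lyve1 had a log2 fold change of 0.80 (standard error 0.29, adjusted p = 0.049) and lost its call without any 1 of 12 libraries. Of 13 other scavenger receptors 3 rose and 1 fell, with Scarb1 (1.45, standard error 0.20, adjusted p = 0.000228) and the lysosomal receptor Scarb2 (1.31) higher and Stab2 (-3.46) lower. Of 18 TREM2 partners 6 rose and 2 fell. The galectin gene Lgals3 averaged 463 ± 232 CPM in PFNU and 120.4 ± 53.7 CPM in BNED (1.94, standard error 0.45, adjusted p = 0.00514). Syk, the kinase that carries the TREM2 and Tyrobp signal and that B cells and neutrophils also use, averaged 69.7 ± 25.2 CPM in PFNU and 277 ± 41.3 CPM in BNED (-1.99, standard error 0.31, adjusted p = 0.000488), and Plcg2 fell too (-1.71, standard error 0.19, adjusted p = 9.55e-05). Summed neutrophil markers were 33.1 to 117 CPM in PFNU and 1192 to 1697 CPM in BNED, and their part in the Syk and Plcg2 values was not tested. With the erythroid marker level as a covariate 0 genes of the whole table were called in this comparison, so every call in this and the next paragraph was lost. Stab2 turned to 0.25.

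Il34, Mitf and Nr1h3 rose in PFNU against BNED, 3 of 13 CSF1 receptor ligands and transcription factors, with log2 fold changes of 1.85 (standard error 0.30, adjusted p = 0.00056), 0.72 and 0.55, and 0 fell. Over all genes tested, 15% rose and 15.2% fell. Mitf lost its call without the BNED library of rat 1 (0.0603), and Nr1h3 without any 1 of 6 libraries (adjusted p up to 0.0846). In haem and iron handling 3 of 10 fell, Blvrb (biliverdin reductase B, abundant in red cell precursors; -1.74, standard error 0.37, adjusted p = 0.0031), Hp (-1.60) and Slc40a1 (-1.25, standard error 0.27, adjusted p = 0.00327), and 0 rose. Hmox1, haem oxygenase and the next step after CD163 in haem breakdown, averaged 183 ± 90.7 CPM in PFNU and 299 ± 68.0 CPM in BNED and was not called; it was chosen after its values were seen. Of the 10 haem genes 6 had negative and 4 positive values. The summed share of erythroid markers was at most 0.351% in PFNU and 3.36 to 5.90% in BNED, and their part in the haem gene values was not tested. With the erythroid marker level as a covariate, which can hardly be told apart from the tissue, Blvrb was at 0.076 (adjusted p = 0.913). Hp was at -1.62 (0.128) and Slc40a1 at -1.02 (0.237).

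**Figure D2:**
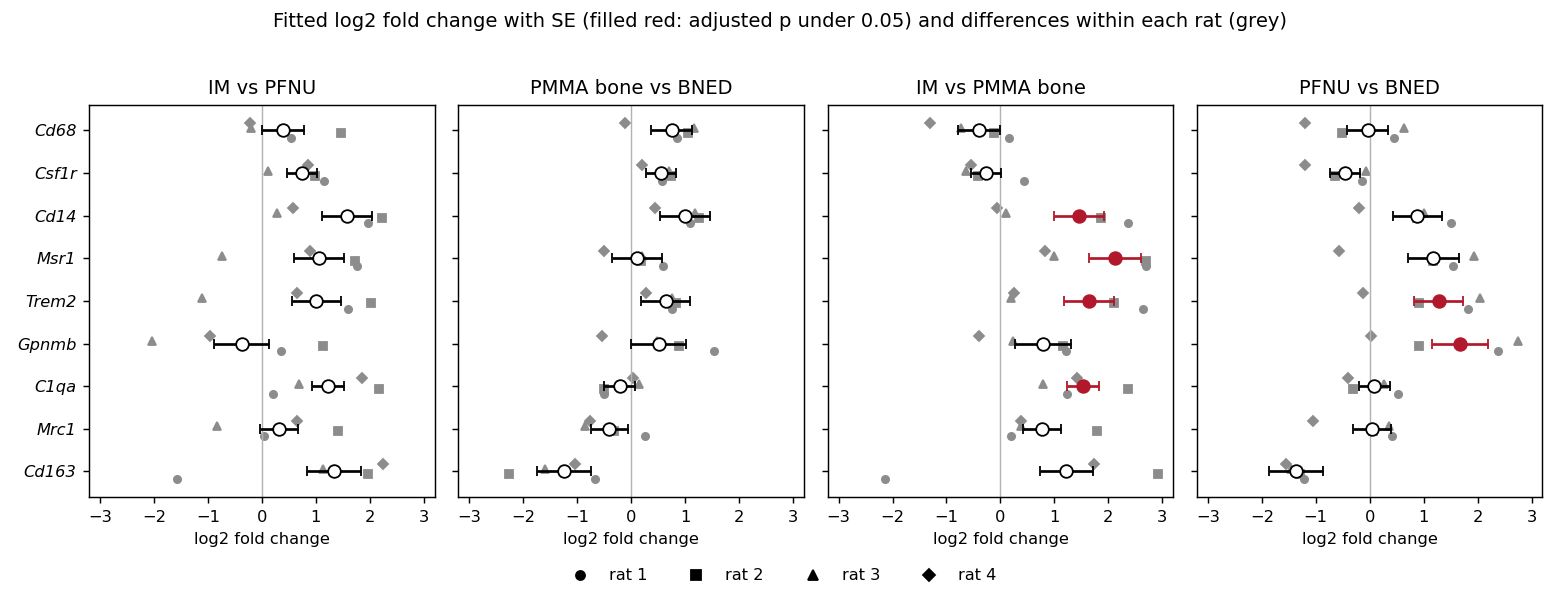
Log2 fold change with its standard error (edgeR) of each tested member in the 4 comparisons between tissues, the group named first over the group named after it, with filled points for an adjusted p under 0.05. Filled points are Cd14, Msr1, C1qa and Trem2 in IM against PMMA bone and Gpnmb and Trem2 in PFNU against BNED, and Cd163 lies on opposite sides of 0 in the 2 comparisons of spacer with empty defect (1.33 and -1.25).

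Levels were also set against the 6 reference macrophage genes of the same library, as log2 CPM of a member minus the mean log2 CPM of the 6. In PMMA bone minus BNED, this relative level was higher by 0.92 for Cd68, 1.17 for Cd14, 0.73 for Csf1r, 0.30 for Msr1 and 0.84 for Trem2, each with all 4 PMMA bone libraries above all BNED libraries. Gpnmb (0.77), Mrc1 (-0.24), C1qa (-0.03) and Cd163 (-1.21) overlapped there. The 6 reference genes themselves had a median log2 fold change of -0.28 in that comparison with no call. The order of Cd14, Csf1r and Trem2 between the bones stood with and without this scaling, but it depended on the reference. With Tyrobp alone as the reference, Cd14 still had all 4 PMMA bone libraries above all BNED libraries. Cd68, Csf1r, Msr1 and Trem2 then overlapped. Tyrobp itself had 201 to 318 CPM in PMMA bone and 141 to 206 CPM in BNED.

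In IM minus PFNU all 9 relative levels overlapped, with differences of 0.83 for Cd14, 0.80 for C1qa, 0.51 for Cd163, 0.47 for Msr1, 0.36 for Trem2, 0.34 for Csf1r, -0.04 for Cd68, -0.11 for Mrc1 and -0.81 for Gpnmb. C1qa, whose CPM did not overlap between IM and PFNU, thus overlapped once set against the reference genes. In PFNU minus BNED, Gpnmb (1.87), Trem2 (1.52), Msr1 (1.37) and Cd14 (1.15) had all PFNU libraries above all BNED libraries and Cd163 (-1.03) all below. In IM minus PMMA bone, Cd14 (0.81), Msr1 (1.55) and C1qa (1.19) had all IM libraries above. BNED therefore held the lowest relative Cd14 of the 4 tissues, in all 4 rats. No test was made of these relative levels, which rest on the choice of 6 genes. The part of other leukocytes in the levels of the 6 was not tested either. Summed neutrophil markers were 1192 to 1697 CPM in BNED, against 206 to 576 CPM in PMMA bone and 33.1 to 117 CPM in PFNU.

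**Figure D3:**
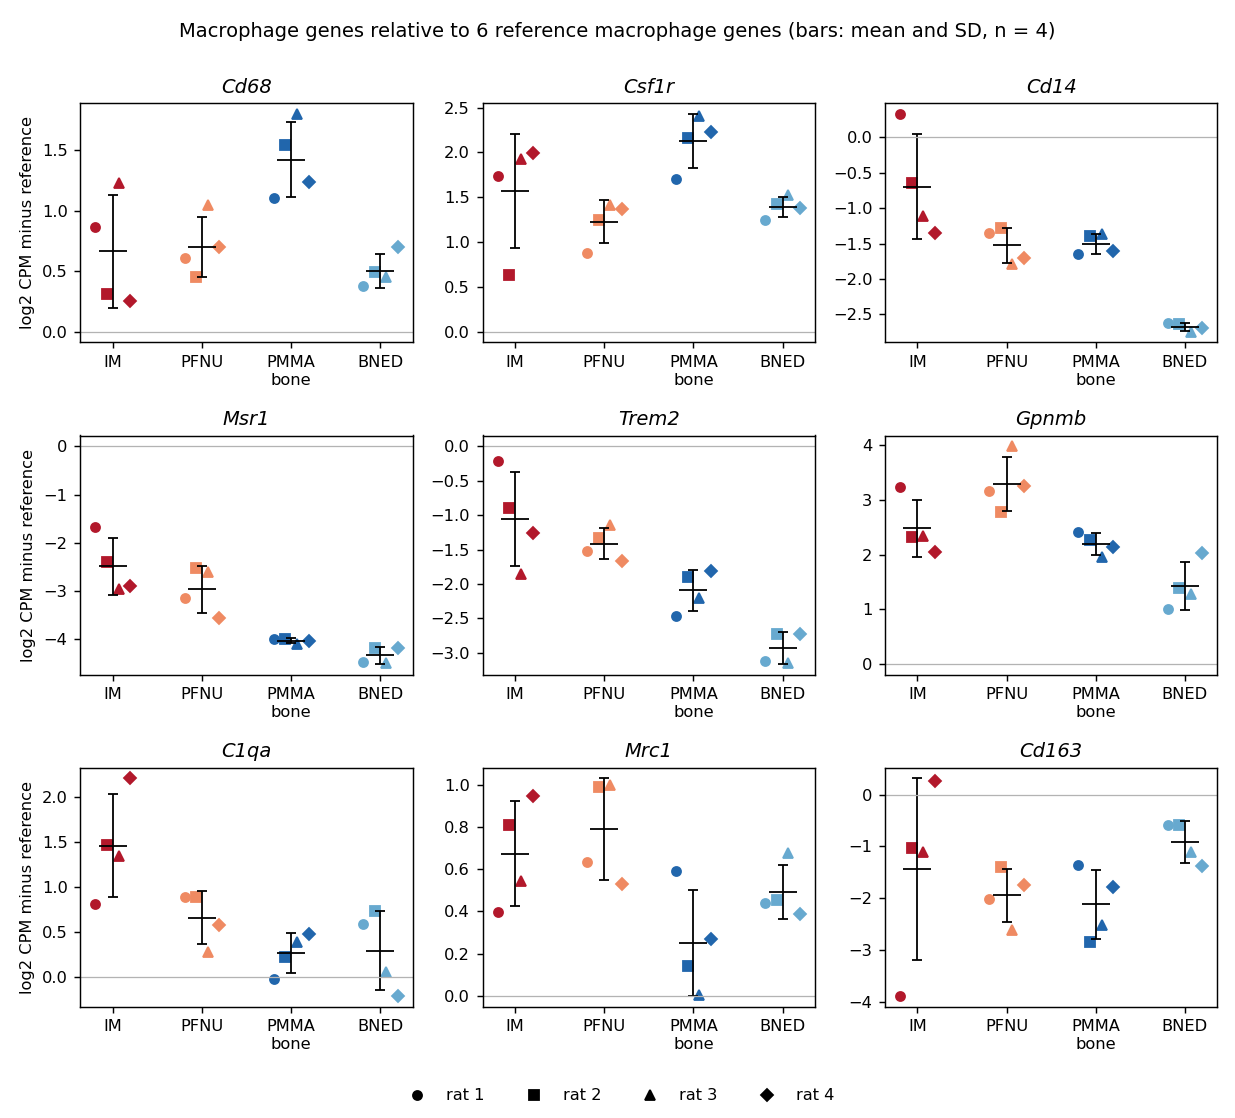
Log2 CPM of each tested member minus the mean log2 CPM of 6 reference macrophage genes in the same library, by tissue, with 1 point per library, the shape giving the rat and bars the mean and SD of 4. For Cd14 the 4 BNED points lie below all other libraries, and for Cd163 the IM points range widely, with rat 1 lowest.

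Most members varied more between rats in soft tissue than in bone. The SD of log2 CPM over 4 libraries had a median over the 9 members of 1.04 in IM, 0.691 in PFNU, 0.277 in PMMA bone and 0.282 in BNED. Cd163 was an exception in the empty defect, with an SD of 0.348 in PFNU, against 0.749 in PMMA bone. This spread was shared between genes. Taking each library's deviation from its group mean, Pearson's r over the 16 libraries was between 0.81 and 0.95 for the 6 pairs among Cd14, Msr1, Gpnmb and Trem2. Cd68 with Gpnmb (0.86) or Csf1r (0.85) and Mrc1 with Msr1 (0.81) reached that range too. Cd14, Msr1, Gpnmb and Trem2 were thus not set apart from Cd68, Csf1r and Mrc1. Cd163 had r of -0.49 to 0.48 with the other 8 and C1qa 0.12 to 0.62, while all 36 pairs had a median of 0.63. These values describe 16 libraries that share 4 rats, tissue content and depth, and the soft tissue libraries, which spread most, weigh most in them.

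**Figure D4:**
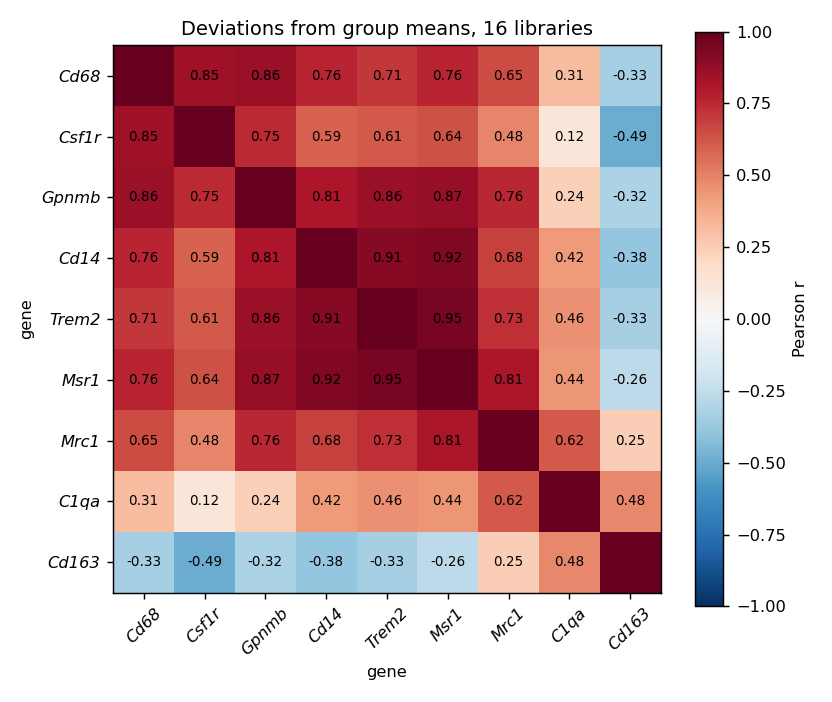
Pearson's r of deviations from group means of log2 CPM over 16 libraries for each pair of the 9 tested members. Pairs among Cd14, Msr1, Gpnmb and Trem2 have r from 0.81 to 0.95, a range that Cd68 with Gpnmb (0.86) or Csf1r (0.85) and Mrc1 with Msr1 (0.81) also reach. The line of Cd163 runs from -0.49 to 0.48.

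Among the 10000 other genes that averaged 5 CPM or more, the gene most like each member in these deviations was Ugt1a7c for Cd68 (r = 0.97), Gria3 for Cd14 (0.96), Trpv2 for Csf1r (0.95), Hpgds for Cd163 (0.95), Cndp1 for Mrc1 (0.96), Pygl for Msr1 (0.98), C1qc for C1qa (0.96), Alcam for Gpnmb (0.97) and Arl11 for Trem2 (0.98), each over 16 libraries. Over all 9 members together, the highest mean r was that of Lgmn, the lysosomal protease legumain (0.72), followed by Ctsb (cathepsin B), Nsf, Fcgr1a (the high-affinity IgG receptor) and Kif3b (0.71 each).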

How the data were processed

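RNA was measured by poly-A RNA-seq in 16 libraries, 4 tissues of each of 4 Sprague-Dawley rats, and grouped by the labels of each sample. Per the labels' protocols, RNA was extracted with Trizol and libraries were made with a stranded TruSeq kit and read from both ends. TopHat2 2.0.13, Bowtie2 2.2.1, FastQC 0.11.3 and DESeq2 are listed, without their roles, along with the genome build rn5, per the submitters' processing notes. Which program counted reads, with which annotation and strand option, is not given in the sources used here, so reads of overlapping or antisense genes cannot be told apart. The deposited values are raw counts per gene symbol, with no normalisation by the authors. Genome positions come from RefSeq GRCr8 and apply only to the promoter windows, of which 9 of the 10 members had one (Msr1 did not).

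The counts were fitted with edgeR 4.0.16 (R 4.3.3, TMM scaling, filterByExpr with a minimum count of 10) in 1 model of 4 group means over 16 libraries, and 12857 genes were tested by the quasi-likelihood F-test with Benjamini-Hochberg adjustment and a threshold of 0.05. Levels are CPM, correlations use log2 CPM with a prior count of 2, and standard errors were taken from the size of the fold change over the square root of F. The 10 members and the 22 gene lists (214 entries, 201 in the table) were chosen with earlier results of these data known. Named are all members, up to 3 called genes of each list by lowest adjusted p, and the genes most like the members. Marker lists of other cell types were used for their summed levels. Values of some genes that this rule names are left out. On simulated counts with 200 changed genes, 29% of 2-fold and 75% of 4-fold changes were recovered for IM against PFNU (12735 genes), 22% and 81% for PMMA bone against BNED (12736), 24% and 77% for IM against PMMA bone (12748), 29% and 81% for PFNU against BNED (12742), 57% and 89% for the limb average (12730) and 10% and 44% for the interaction (12747). Each gene was simulated with the same spread in all tissues, whereas in the data most members varied more in soft tissue than in bone.

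Samples with the same rat number come from the same animal per the labels, which pairs them across tissues; their deviations from the group means correlated at -0.345 to 0.496. The main model had no block, and a rat block was an alternative. Others were RLE scaling, no filter on low counts, DESeq2 1.42.0, limma-voom 3.58.1 with quality weights, a fit on the compared groups alone, the muscle or erythroid marker level as a covariate, and each library left out. The marker level was the mean log2 CPM of the markers of a list in a library, not their share of counts. For the relative levels, Tyrobp alone was an alternative reference. Replicate libraries differed beyond sampling noise (chi-square per degree of freedom 81.7 to 2751), so all were kept. The reads carry no molecular identifiers, so floors cover counting error only.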

Additional observations from a re-analysis of the deposited data

Results flagged for a closer look

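Mrc1, the mannose receptor gene, stood apart in 1 library. In PMMA bone the library of rat 1 had 238 CPM (237.747 before rounding), against 141, 149 and 141 CPM in rats 2 to 4, a gap of 0.909 of the group's range above the 95% limit of Dixon's test for 4 samples. It was the 1 such case among 36 groups of 4 libraries (9 genes in 4 tissues), and chance gives about 1 in 20. The same library had 6.30% of its counts in erythroid markers, against 0.352 to 1.08% in the other PMMA bone libraries. In this library Cd163, at 61.4 CPM, was also the highest of its group. The part of marrow content in these values was not tested.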

How the results depend on the processing

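Across alternatives, the number of genes called moved most. In IM against PFNU 111 genes were called, and DESeq2 called 563, limma-voom 0 (1558 at an unadjusted p under 0.05), the fit on the compared groups 0 (1323 unadjusted), the rat block 47, the muscle covariate 350 and the erythroid covariate 9. In PMMA bone against BNED the count was 631, with DESeq2 1518, limma-voom 6244, compared groups 1767, muscle 2202 and erythroid 0. In IM against PMMA bone it was 2860, with compared groups 908, muscle 844 and erythroid 1283. In PFNU against BNED it was 3884, with limma-voom 6720, muscle 1378 and erythroid 0. For the limb average it was 1381, with DESeq2 2179, limma-voom 4028, muscle 2401 and erythroid 0, and for the interaction 0, with DESeq2 131, limma-voom 218, muscle 73 and erythroid 5. The count of called members was 0 in IM against PFNU (DESeq2 2), 0 in PMMA bone against BNED (limma-voom 6, compared groups 3, muscle 1), 4 in IM against PMMA bone (DESeq2 5, muscle 5, rat block 3, limma-voom 2, compared groups 2, erythroid 1), 2 in PFNU against BNED (no filter 1, DESeq2 4, limma-voom 5, compared groups 5, rat block 0, muscle 4, erythroid 0), 2 for the limb average (no filter 1, muscle 1, erythroid 0) and 0 for the interaction (DESeq2 1, limma-voom 1). With each library left out in turn, the counts of genes ran from 11 to 244, 0 to 2578, 1818 to 4047, 2637 to 4755, 781 to 2876 and 0 to 199 in the order above, and of members from 0 to 1, 0 to 1, 2 to 4, 0 to 4, 1 to 3 and 0 to 1. The rat block changed no call of a member beyond those given with the results.

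Some directions turned. In IM against PFNU, Mrc1 was at -0.062 with the muscle covariate and Cd68 at -0.078 with the erythroid covariate, and without single libraries Mrc1 ran from -0.071 to 0.60 and Gpnmb from -0.77 to 0.17. In PMMA bone against BNED, the muscle covariate gave Msr1 -0.79, Gpnmb -0.49 and Trem2 -0.12, and the erythroid covariate Msr1 -0.17. In IM against PMMA bone, the muscle covariate gave Cd68 0.70, Csf1r 0.43 and Slc40a1 0.0046. In PFNU against BNED, limma-voom gave Mrc1 -0.20 and C1qa -0.0052, the rat block Mrc1 -0.039, muscle Cd68 0.87 and Csf1r 0.13, and erythroid Cd14 -0.19, Cd163 0.31, C1qa -0.35, Stab2 0.25 and Blvrb 0.076; without single libraries Mrc1 ran from -0.24 to 0.26, C1qa from -0.20 to 0.27 and Cd68 from -0.39 to 0.16. For the limb average, limma-voom gave Cd163 -0.41 and Gpnmb -0.0073, muscle Msr1 -0.20 and Gpnmb -0.79 (adjusted p = 0.0497), and erythroid Gpnmb -0.17, with Gpnmb from -0.14 to 0.34, Cd163 from -0.17 to 0.20 and Mrc1 from -0.24 to 0.10 without single libraries. For the interaction, limma-voom gave Cd14 -0.12 and Trem2 -0.47. The causes were not tested. The erythroid share was at most 0.351% in soft tissue and at least 0.352% in bone. The covariate was the mean log2 CPM of the same markers, not this share. Their summed level had a median of 674 CPM in IM and 1774 CPM in PFNU, against 6591 CPM in PMMA bone and 42520 CPM in BNED. That covariate and the tissue can therefore hardly be told apart. Depth limited Marco, and also Retnla and, in IM, Stab2, which had a few counts per library.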

Other observations

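Of 10 alternative activation genes 0 passed the test in IM against PFNU, where 0.863% of all genes did, and 1 rose in PMMA bone against BNED, where 3.51% of all genes rose, Arg1, the arginase of alternatively activated macrophages, with 12.8 ± 10.8 CPM in PMMA bone and 1.60 ± 0.725 CPM in BNED (SD, n = 4 each; log2 fold change 3.01, SE 0.70, edgeR adjusted p = 0.0315, and 0.054 with the rat as a block). Of 10 classical activation genes 0 passed in IM against PFNU and 1 rose in PMMA bone against BNED, the cytokine Il6 (3.75, SE 0.94, adjusted p = 0.0364), with 0.631 to 7.04 CPM in PMMA bone and 0.0875 to 0.283 CPM in BNED. Both calls were lost without PMMA bone of rat 2, 3 or 4 or BNED of rat 1, 2 or 3 (adjusted p up to 0.125 for Arg1 and 0.137 for Il6), and that of Il6 also without BNED of rat 4 (0.0783). Both were also lost with the erythroid marker level as a covariate, under which 0 genes were called in PMMA bone against BNED.

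Between soft tissue and bone, the eosinophil chemokine Ccl24 rose in IM against PMMA bone (log2 fold change 2.55, SE 0.38, adjusted p = 0.000715), the 1 of 10 alternative activation genes where 22.2% of all genes were called, and kept its call whichever library was left out. Of the classical genes, Cxcl9 rose there (2.51, SE 0.76, adjusted p = 0.0283) and Il1b fell (-1.96, SE 0.56, adjusted p = 0.0234); Cxcl9 lost its call without IM of rat 3 or PMMA bone of rat 2, 3 or 4 (up to 0.094) and Il1b without IM of rat 4 or PMMA bone of rat 3 (up to 0.103). In PFNU against BNED, the interferon-induced chemokines Cxcl9 (3.12) and Cxcl10 (3.36) rose, where 30.2% of all genes were called, and kept their calls whichever library was left out. PFNU of rat 1 was far above the rest, with 188 CPM of Cxcl9 and 173 CPM of Cxcl10. The other PFNU libraries held 23.7 to 39.0 CPM and 12.6 to 28.1 CPM, and BNED 4.15 to 11.2 CPM and 3.10 to 6.78 CPM. With the erythroid marker level as a covariate, under which 0 genes of the table were called, the adjusted p of Cxcl9 and Cxcl10 were 0.29 and 0.231. Of the alternative genes Ccl22 (3.59) and Arg1 (2.13) rose there and Retnla fell, at 0 to 0.0934 CPM in PFNU and 0.138 to 0.525 CPM in BNED, levels of a few counts. Ccl22 had 51.1 CPM in PFNU of rat 1, against 4.50 to 6.73 CPM in the other PFNU libraries and 0.259 to 2.82 CPM in BNED. Arg1 lost its call without PFNU of rat 2 or 3 or BNED of rat 1, 2 or 3 (up to 0.0761), and Retnla without PFNU of rat 1, 2 or 3 or BNED of rat 4 (up to 0.067). These genes are not restricted to macrophages, and in bulk tissue the cells that carried them were not told apart.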
